A study of Homo sapiens with 3 samples.

Results

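CK2α regions that lay beside RNA polymerase II (Pol II) without touching it numbered 4856 of the 13382 regions in the CK2α list, which is 36.3%. A CK2α region was taken when the centre of its nearest Pol II region in vehicle-treated cells was more than 200 and at most 1000 bp away. The regions were called with a size of 200 bp and have nearly all the same width, so centres more than 200 bp apart mean that 2 regions share no base. This distance held for 5550 CK2α regions, and the 694 of them that overlapped a Pol II region from inhibitor-treated cells were left out. The remaining CK2α regions were 4929 that overlapped vehicle Pol II and 2903 whose nearest vehicle Pol II centre was over 1000 bp away. The distances that chose the regions are given as descriptions only.

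The lists came from chromatin immunoprecipitation sequencing (ChIP-seq) of LNCaP, an established, androgen-responsive prostate carcinoma line, with 1 library per group. The CK2α library came from cells given 100 nM dihydrotestosterone (DHT), an androgen that activates the androgen receptor, for 2.5 hours by the treatment label and 90 min by the protocol. Both Pol II libraries came from cells treated for 2.5 hours with 25 μM DMSO, as the label writes the vehicle, or with 25 μM TBBz, a benzimidazole inhibitor of CK2, and 100 nM DHT was present for the last 1.5 hours. All cells, of passage 40 to 45, had been moved from 10% serum to 5% charcoal-stripped serum for 3 days, so every group carried DHT and none was without hormone. TBBz was the only means of inhibition, CK2α was not profiled in cells given TBBz, and the source label of both Pol II libraries mentions TBBz, so they are told apart by their treatment labels. The libraries held 15466579 to 22345614 tags, and their called regions held 1.65% of the tags for CK2α, 6.79% for DMSO and 12.6% for TBBz. No control library was named for any list, and the part of background shared between the libraries in what follows was not tested. With no replicates, a difference between libraries could not be set against a spread, so the conditions were described and not tested. Intervals are exact (Clopper-Pearson) 95% binomial intervals of a share, or the matching order-statistic intervals of a median, and cover counting error only.

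CK2 is a kinase of broad specificity whose α subunit is catalytic, and its nuclear targets include a tyrosine of histone H2A and proteins of the elongation machinery. Pol II that has begun transcription commonly pauses a short way into the gene before it is released into elongation, and antibodies to its largest subunit then recover a sharp peak near the start site. A ChIP-seq region marks where tags pile up most, so the distance between the centres of a CK2α and a Pol II region is the distance between 2 pile-ups and not between single molecules. The lists name no genes and a gene annotation in their build, hg19, was not used here, so regions are given by position. The strand of transcription at each region was not analysed here.

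The 10 regions that opened this set stood between places 15 and 46 of the CK2α list, whose order was taken to follow strength. Their nearest DMSO Pol II centre was 209 to 575 bp away. In 9 of the 10 that Pol II region was found again with TBBz, meaning that a TBBz region overlapped it by at least 1 bp. At chr17:39845520-39845720, the leading region, Pol II was centred 436 bp from CK2α with DMSO and 419 bp from it with TBBz. At chr6:111196377-111196577 it was 455 bp away with DMSO and 434 bp with TBBz. Both libraries thus placed Pol II on the same side of CK2α at nearly the same distance.

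The neighbour of chr6:74230038-74230238 was 575 bp away with DMSO and 561 bp with TBBz, the widest spacing among the 10. At chr3:186501840-186502040 the spacing was 530 bp with DMSO and 508 bp with TBBz. At chr21:28217216-28217416 it was 354 bp with DMSO and 329 bp with TBBz. These CK2α regions had Pol II neighbours from the front of the DMSO list, at places 35, 28 and 93. At chr1:155107943-155108143 the DMSO and TBBz centres were 336 and 350 bp away, and at chr19:1269570-1269770 they were 294 and 285 bp away. In 8 of the 10 regions the DMSO and TBBz distances differed by no more than 25 bp.

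The exceptions were chr1:155232210-155232410 and chr19:50490503-50490703. At the first the Pol II centre stood at 209 bp with DMSO and at 309 bp with TBBz, so it lay farther from CK2α with the inhibitor. At the second the DMSO centre was 239 bp away and no TBBz centre was nearer than 37979 bp. This CK2α region held place 25 of its list, whereas its DMSO neighbour, chr19:50490264-50490464, held place 17157 of 21819. It was therefore a leading CK2α region beside a Pol II region from late in the DMSO list.

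**Figure D1:**
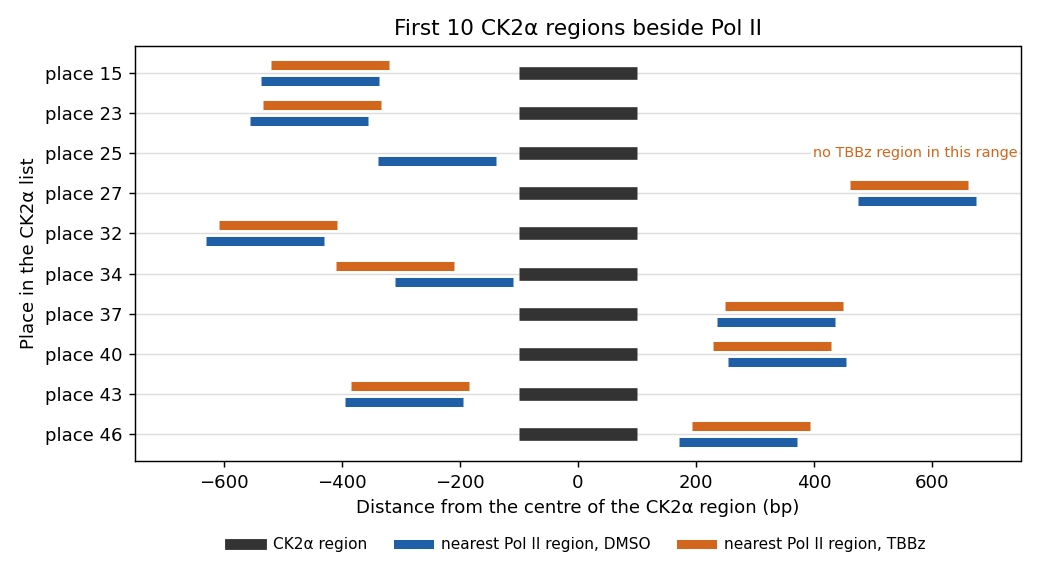
Map of the first 10 CK2α regions beside Pol II, 1 row each, labelled by place in the CK2α list; the horizontal axis is the distance in bp from the centre of the CK2α region (black bar), with coordinates rising to the right, and blue and orange bars are the nearest Pol II regions with DMSO and TBBz. In 9 rows both Pol II bars lie on the same side and overlap each other, and the row of place 25 has no TBBz region in the range shown.

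Over all 4856 CK2α regions the nearest DMSO Pol II centre was at a median of 383 bp, with quartiles of 288 and 523 bp. The rule limits these values, since it chose the regions by this distance. Within its limits the number fell with distance, which the rule does not require. There were 1421 regions up to 300 bp away, 1175 over 300 and up to 400 bp away, and 84 over 900 bp away. The limits did not stand at a break in the distances. At the inner limit of 200 bp, 162 CK2α regions lay in the 10 bp below it and 167 in the 10 bp above it. At the outer limit of 1000 bp there were 5 in the last 10 bp inside and 11 in the 10 bp beyond. The closest regions inside the rule, at its inner limit, were chr3:9975255-9975455, chr4:699773-699973 and chr15:59280049-59280249, and their TBBz distances were 220, 215 and 205 bp. The farthest were chrX:66764821-66765021 at 995 bp, chr10:104677250-104677450 at 992 bp and chr2:128284878-128285078 at 991 bp, with TBBz distances of 998, 1008 and 968 bp. CK2α lay at higher coordinates than its Pol II neighbour in 2360 cases and at lower coordinates in 2496.

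Beside most of these CK2α regions Pol II also stood within 1000 bp with TBBz. The rule required that no TBBz region overlap them but set no upper limit on the TBBz distance. A TBBz centre lay within 1000 bp of 4620 of the 4856 CK2α regions, which is 95.1% (94.5 to 95.7%), against a background of 77.0% over all CK2α regions and 92.1% (91.3 to 92.8%) for CK2α regions that overlapped DMSO Pol II. The median distance to the nearest TBBz centre was 381 bp, with quartiles of 286 and 536 bp. Taken region by region, the TBBz distance minus the DMSO distance had a median of -1 bp and quartiles of -21 and 21 bp. The 2 distances differed by at most 20 bp in 49.3% of the CK2α regions (47.9 to 50.7%), by at most 50 bp in 73.2% (72.0 to 74.5%) and by at most 200 bp in 85.7% (84.7 to 86.7%). In the histogram of distances the lists also had similar shapes, with 407 CK2α regions at 276 to 300 bp from DMSO Pol II and 387 at that distance from TBBz Pol II. All 694 left-out CK2α regions had a TBBz distance shorter than their DMSO distance. The rule thus partly fixed the medians, the differences and the shape of the histogram, and values with those regions kept in are not given for them.

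**Figure D2:**
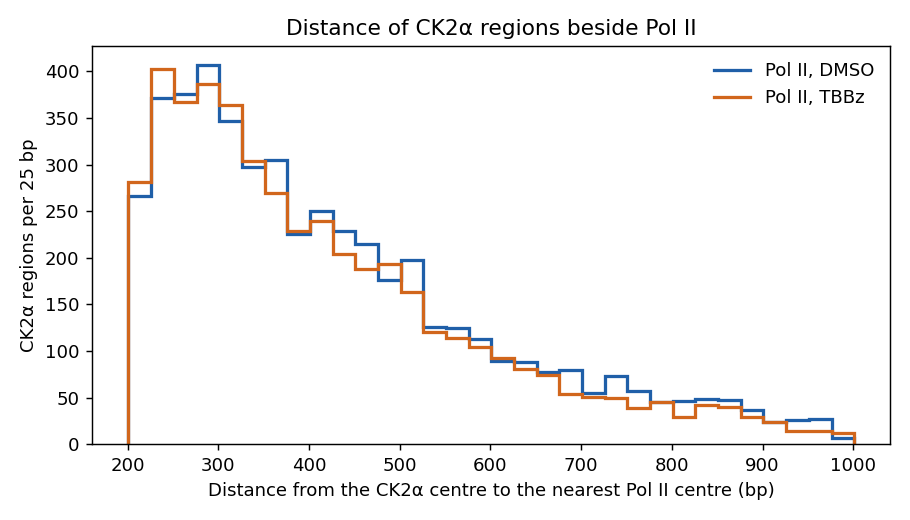
Number of CK2α regions per 25 bp of distance to the nearest Pol II centre, for the 4856 CK2α regions beside Pol II; the horizontal axis is the distance in bp, the blue line is Pol II with DMSO and the orange line Pol II with TBBz. Both lines begin just above 200 bp because of the rule, are highest below 325 bp and fall to few regions near 1000 bp.

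The 694 CK2α regions that were left out had a counterpart of about the same size. They lay beside Pol II with DMSO and on Pol II with TBBz, whereas 674 CK2α regions lay on Pol II with DMSO and beside it, by the same distances, with TBBz. For comparison, 4620 lay beside Pol II in both libraries and 3866 overlapped it in both. Overlap with TBBz only and overlap with DMSO only, each with Pol II beside CK2α otherwise, were thus similar in number. These counts do not show whether a Pol II region moved, since the neighbour itself was not followed. At the limit of the exclusion, 91 of the 5550 regions had a TBBz centre in the last 10 bp up to 200 bp and 106 in the 10 bp beyond.

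The neighbours themselves were 4508 distinct DMSO Pol II regions, 20.7% of the DMSO list. They stood early in it, at a median place of 28.6% of the list (27.6 to 29.4%), against 36.2% (35.1 to 37.4%) for Pol II regions overlapped by CK2α, some of which are also neighbours, and 66.9% (66.1 to 67.6%) for those with no CK2α centre within 1000 bp. In the first 10% of the DMSO list, 36.7% of the Pol II regions (34.6 to 38.7%) had one of these CK2α regions beside them, and in the last 10% it was 5.18% (4.29 to 6.20%). Of the neighbours, 3859 were found again with TBBz, which is 85.6% (84.5 to 86.6%), against a background of 73.8% over the DMSO list. For Pol II regions overlapped by CK2α it was 81.2% (80.1 to 82.3%), and for those with no CK2α centre within 1000 bp 67.5% (66.6 to 68.3%). Leaving out CK2α regions that overlap TBBz Pol II also takes away Pol II regions that were not found again. With those CK2α regions kept in, the share was 81.7% (80.6 to 82.7%).

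Early regions of the DMSO list were found again more often whatever lay beside them, so the neighbours were also set beside Pol II regions of similar place. In the first 10% of the list 94.6% of the neighbours (92.8 to 96.1%) and 92.6% of the Pol II regions without CK2α (90.2 to 94.6%) were found again. In the fifth 10% the shares were 88.3% (85.3 to 90.9%) and 88.1% (85.8 to 90.1%). In the last 10% they were 32.7% (24.2 to 42.2%) and 36.2% (34.0 to 38.4%). The neighbours had the higher share in 5 of the 10 parts and the lower in 5, and the shares differed by 6.46 percentage points at most. This set of neighbours was itself chosen with the TBBz list, through the CK2α regions left out. With those kept in, the neighbours had the lower share in all 10 parts, by at most 7.29 points: 91.0% (89.0 to 92.8%) in the first 10%, 82.9% (79.7 to 85.9%) in the fifth and 32.5% (24.2 to 41.7%) in the last. The direction of the difference at similar place thus depended on the left-out regions.

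**Figure D3:**
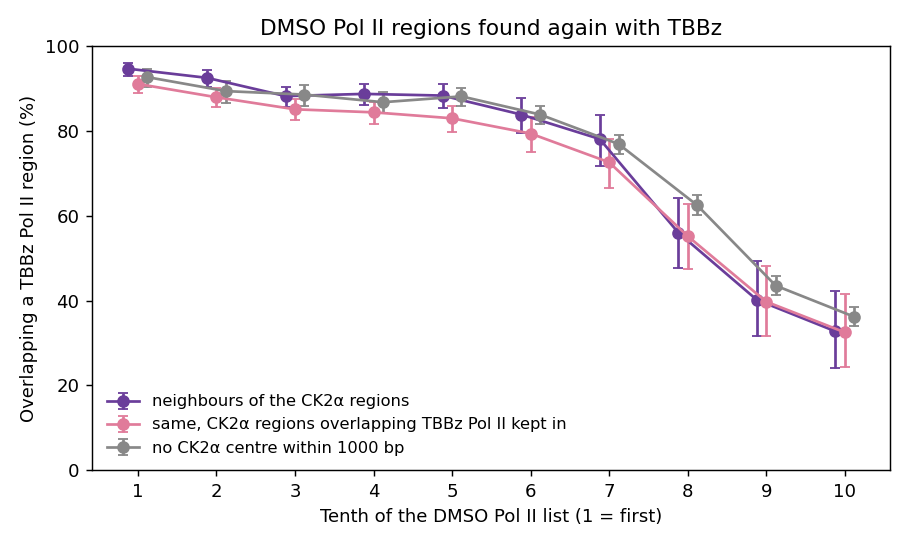
Share of DMSO Pol II regions that overlapped a TBBz Pol II region by at least 1 bp, in %, for each 10% of the DMSO list in order; purple points are the neighbours of the CK2α regions, pink points the neighbours with CK2α regions that overlap TBBz Pol II kept in, grey points the Pol II regions with no CK2α centre within 1000 bp, and bars are exact 95% binomial intervals. All series fall from above 91% in the first 10% to below 37% in the last, and the pink points lie under the grey points in all 10 parts.

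The share of neighbours found again was lower at wide spacing. Of the CK2α regions up to 300 bp from Pol II, 88.5% (86.8 to 90.1%) had a neighbour that was found again with TBBz. Of the CK2α regions over 300 and up to 400 bp from Pol II, 91.5% (89.7 to 93.0%) had one. At over 500 and up to 600 bp it was 82.7% (79.4 to 85.8%), and at over 600 bp it was 72.7% (69.5 to 75.7%). The neighbours stood at similar places of the DMSO list, with medians of 27.4%, 26.3%, 28.5% and 30.7%. With the left-out regions kept in, the shares were 85.6%, 85.4%, 78.9% and 72.4%. Several CK2α regions can share a neighbour, so these counts are over CK2α regions.

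For 686 of the 4856 CK2α regions the neighbour was not found again. In 475 of these a TBBz centre lay over 200 and up to 1000 bp from the DMSO centre, and in 211 the nearest one was over 1000 bp from it. The TBBz centre lay towards CK2α in 278 of the 475 (58.5%, 53.9 to 63.0%), and the direction turned with the spacing. It was 39 of 162 (24.1%, 17.7 to 31.4%) for CK2α regions up to 400 bp from Pol II, where a move towards CK2α often ends in an overlap that the rule leaves out, and 139 of 168 (82.7%, 76.2 to 88.1%) for those over 600 bp away. With the left-out regions kept in, it was 211 of 339 (62.2%, 56.8 to 67.4%) up to 400 bp and 606 of 811 (74.7%, 71.6 to 77.7%) over all distances. When the lists exchanged roles, so that CK2α regions were chosen by their distance to TBBz Pol II, the DMSO centre lay towards CK2α in 237 of 525 displaced neighbours (45.1%, 40.8 to 49.5%), in 74 of 274 (27.0%) up to 400 bp and in 94 of 129 (72.9%, 64.3 to 80.3%) over 600 bp. With the left-out regions kept in it was 589 of 891 (66.1%, 62.9 to 69.2%). At over 600 bp, and at all distances with the left-out regions kept in, the library that did not choose the regions had its centre on the CK2α side in most displaced cases in either role.

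Small shifts were a few bp in the median. For CK2α regions over 400 bp from Pol II, a shift of up to 200 bp in either direction is not limited by the rule. In 1837 such cases the neighbour was found again, and the size of the shift between the DMSO and TBBz centres had a median of 17 bp. The TBBz centre lay towards CK2α in 996 cases, away from it in 813 and at the same position in 28. That makes 55.1% of the shifts towards CK2α (52.7 to 57.4%), with a median shift of 2 bp. With the lists exchanged, it was the DMSO centre that lay towards CK2α in 51.6% of the shifts (49.3 to 54.0%), with a median of 1 bp. Several CK2α regions can share a neighbour and the intervals cover counting error only, so neither share was tested against 50%.

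CK2α regions without Pol II nearby under TBBz were few. No TBBz centre lay within 2000 bp of 197 of the 4856 (4.06%, 3.52 to 4.65%), against 20.9% of the whole CK2α list and 7.12% (6.42 to 7.88%) of the CK2α regions that overlapped DMSO Pol II. The rule had already taken away the 694 with Pol II on them under TBBz. The 197 stood late in both lists, at a median of 62.3% of the CK2α list and with neighbours at a median of 85.6% of the DMSO list. Only 7 of the neighbours were in the first 50% of that list. The first after chr19:50490503-50490703 was chr14:36004468-36004668, at place 95 for CK2α. Its DMSO neighbour, 225 bp away, held place 20784 and the nearest TBBz centre was 130698 bp away. At chr1:109783356-109783556 the DMSO centre was 282 bp away and the TBBz centre 8794 bp. At chr3:197684327-197684527 the distances were 238 and 2731 bp, and at chr1:151021107-151021307 they were 211 and 10131 bp. The neighbours of these last regions held places 10357, 6741 and 9012 of the DMSO list. They were thus among the 7 in its first 50% and not typical of the 197.

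Within the CK2α list the regions beside Pol II were most frequent after the leading ones. They made up 32.0% (29.5 to 34.5%) of the first 10% of the CK2α list, 46.0% (43.3 to 48.7%) of the third 10% and 22.9% (20.6 to 25.2%) of the last. CK2α regions that overlapped DMSO Pol II were instead most frequent at the front, with 57.4% (54.7 to 60.1%) of the first 10%. The median place was 44.2% of the list (43.2 to 45.6%) for the regions beside Pol II, 38.9% (37.6 to 40.1%) for those overlapping it and 77.8% (76.8 to 78.9%) for those farther than 1000 bp. Among the regions beside Pol II, the median DMSO distance was 349 bp (324 to 360 bp) in the first 10% of the list and 420 bp (385 to 453 bp) in the last. It did not rise evenly between them, with 408.5 bp in the sixth 10% and 374.5 bp in the seventh. The rule limits this distance, so these medians are a description only and leave out CK2α regions that overlap Pol II.

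**Figure D4:**
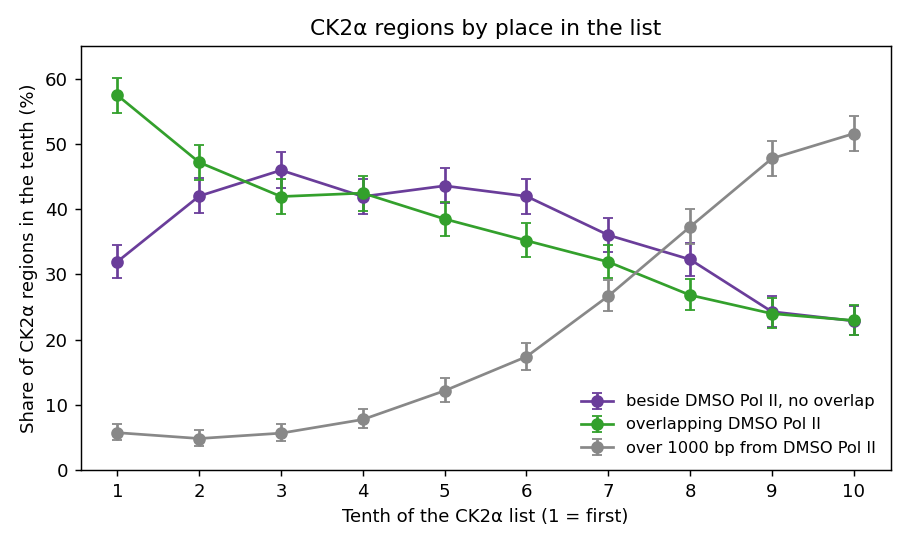
Share of CK2α regions, in %, in each 10% of the CK2α list in order; purple points are regions beside DMSO Pol II without overlap, green points regions that overlap it, grey points regions over 1000 bp away, and bars are exact 95% binomial intervals. The purple points rise from 32.0% in the first 10% to 46.0% in the third and fall to 22.9% in the last, while the green points are highest in the first 10%.

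Some Pol II regions had CK2α on both flanks. Of the 4508 neighbours, 4163 had 1 of these CK2α regions beside them, 342 had 2 and 3 had 3. In 317 of the 345 with more than 1, CK2α regions lay on opposite sides of Pol II (91.9%, 88.5 to 94.5%). CK2α regions near one another were at least 413 bp apart, so a pair on the same side must include a region far out in the distance range. Across the 317 the distance to CK2α had a median of 404 bp on either side, and the CK2α centres were 829 bp apart at the median, with quartiles of 726 and 1026 bp. The flanks were seldom of equal length: they differed by a median of 183 bp, and by at most 100 bp in 90 of the 317. These Pol II regions stood at a median of 22.4% of the DMSO list (20.5 to 26.1%), and 282 of them were found again with TBBz (89.0%, 85.0 to 92.2%). That is near the 87.9% (86.5 to 89.2%) of all DMSO regions in the third 10% of the list, where the median lay. The 317 stood at places 148 to 20787, so this comparison was not matched by place. They were also chosen after CK2α regions overlapping TBBz Pol II had been left out.

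The first such Pol II region was chr17:56709029-56709229, at place 148 of the DMSO list. CK2α lay 318 bp to its left at chr17:56708711-56708911 and 706 bp to its right at chr17:56709735-56709935. With TBBz its centre was 84 bp farther left, 234 and 790 bp from these CK2α regions. At chr3:41240925-41241125, place 152, the flanks were nearly equal, with CK2α at chr3:41240649-41240849, 276 bp away, and at chr3:41241194-41241394, 269 bp away. There the TBBz centre stood 4 bp from the DMSO centre. At chr16:11349935-11350135, place 200, CK2α lay 335 bp away at chr16:11349600-11349800 and 313 bp away at chr16:11350248-11350448, and the TBBz centre was 23 bp from the DMSO centre.

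**Figure D5:**
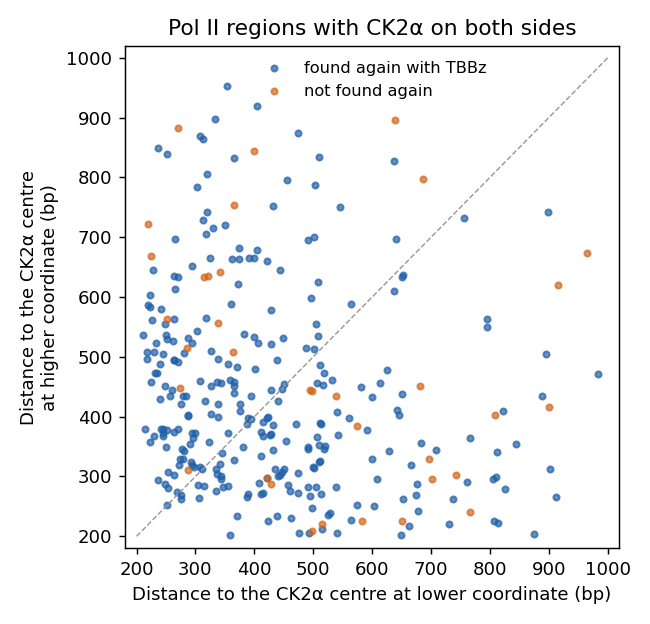
Distances in bp from 317 DMSO Pol II regions to the CK2α centre at lower coordinate (horizontal axis) and at higher coordinate (vertical axis); each point is 1 Pol II region, blue where it was found again with TBBz (282) and orange where it was not, and the dashed line marks equal distances. The points spread on both sides of the line, with a median of 404 bp on each axis.

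The reverse arrangement was CK2α between 2 Pol II regions. A DMSO Pol II centre lay within 1000 bp on both sides of 253 of the 4856 CK2α regions (5.21%, 4.60 to 5.87%), against a background of 4.83% over all CK2α regions. That background includes the 2903 CK2α regions over 1000 bp from DMSO Pol II, which by definition cannot have it on both sides. The share was 4.90% (3.42 to 6.78%) for the 694 left-out CK2α regions and 7.28% (6.57 to 8.04%) for those that overlapped Pol II. For the regions beside Pol II the share was 2.70% with the first 50% of both Pol II lists and 2.09% for those over 500 bp from Pol II. When CK2α regions were chosen by their distance to TBBz Pol II, 8.47% had TBBz Pol II on both sides, which is a different measure. The Pol II centres around these 253 were 919 bp apart at the median, with quartiles of 739 and 1111 bp. The nearer of the 2 was found again with TBBz in 207 of the 253 cases. For comparison, the neighbour was found again for 4170 of all 4856 CK2α regions beside Pol II (85.9%). Over the DMSO list 73.8% of single regions were found again. These comparisons were not matched by place in the list. Both Pol II regions were found again in 170 of the 253 cases (67.2%), a joint share for which no background of pairs was computed. The first was chr1:149859047-149859247, with Pol II 610 bp to the left and 272 bp to the right. It was followed by chr20:44562953-44563153, with Pol II at 509 and 608 bp, and chr7:73245654-73245854, at 394 and 882 bp. At chr12:46766025-46766225 the distances were 825 and 395 bp, and at chr6:26157448-26157648 they were 957 and 835 bp.

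Some of the regions beside Pol II had other CK2α regions near them. Another CK2α centre lay within 1000 bp of 1104 of them (22.7%, 21.6 to 23.9%), against a background of 15.3% over the CK2α list. Among the 694 left-out CK2α regions, which also lay beside DMSO Pol II, the share was 19.7% (16.8 to 22.9%). It was 13.1% (12.1 to 14.0%) for CK2α regions that overlapped DMSO Pol II and 5.37% (4.58 to 6.26%) for those farther than 1000 bp. The nearest other CK2α region shared the same Pol II neighbour and also lay beside it in 518 of the 1104 cases, and it overlapped that Pol II region in 396. Where it lay within 1000 bp, the nearest other CK2α centre was 718 bp away at the median.

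The regions were spread over all chromosomes. Their share of a chromosome's CK2α regions was between 34.1% (30.9 to 37.5%, chromosome 19) and 40.8% (37.3 to 44.4%, chromosome 2) on 22 of the 24. The exceptions were chromosome 21, with 52 of 181 (28.7%, 22.3 to 35.9%), and chromosome Y, with 9 of 58 (15.5%, 7.35 to 27.4%). Stretches of 2 Mb or more without a region of any list occur near centromeres, and 9.04% of the regions lay no more than 1 Mb from such a stretch (8.25 to 9.88%), against a background of 10.5% over the CK2α list and 11.1% (10.3 to 12.1%) for CK2α regions overlapping DMSO Pol II. Of the windows of 1 Mb that held any of the regions, 1723 in all, 567 held 1 and 23 held at least 10. The fullest windows, named after their values were seen, were chr6:26000001-27000000, chr17:56000001-57000000 and chr19:58000001-59000000, each with 14. They made up 14 of 22 CK2α regions in the window on chromosome 6, 14 of 18 on chromosome 17 and 14 of 42 on chromosome 19. The Pol II neighbour was found again with TBBz for 11 of the 14 on chromosome 6, 11 of the 14 on chromosome 17 and all 14 on chromosome 19.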

How the data were processed

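Per the submitters' processing notes, reads were aligned with Bowtie to hg19 and regions called with HOMER, without a version for either. The authors called each library separately, per the file headers, in HOMER's factor style (size 200 bp, minimum distance 500 bp, fragment length 150 bp, false discovery rate 0.001), with no control library named, and dropped candidates under 4-fold of the tag density in 10 kb around them. This keeps sharp pile-ups and drops broad ones, so an absent region is not an absence of Pol II. The deposited score is 1 in every row and ranks nothing; the order of each list was used as a rank, on the untested assumption that it follows strength. The deposited starts count from 0 and were raised by 1. All regions had the same width except 2 in the TBBz list, which were narrower. Total tags per the file headers were 19021404 (CK2α), 15466579 (DMSO) and 22345614 (TBBz), with 23.5, 48.1 and 114 tags in the mean region; tags of PCR copies are not independent.

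A centre was (start + end)//2 on the deposited coordinates. Overlap meant at least 1 bp. Shares and medians were computed over regions with Python 3.11.15, NumPy 2.4.6, pandas 2.3.3 and SciPy 1.17.1, and the scripts were tested on simulated data. Regions are not replicates. The regions and lists were chosen with earlier results of these data known. Named regions were the first 10 of the set in CK2α order, the first 5 with Pol II on both sides, the first 5 with no TBBz centre within 2000 bp of their DMSO neighbour, the first 3 Pol II regions with CK2α on opposite sides, and the 3 smallest and 3 largest distances. Genes, motifs and sequences were not analysed here, because no genome of the build hg19 was used. Alternatives varied the overlap rule, the distance window, the length of the lists, the chromosomes and the exclusions.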

Additional observations from a re-analysis of the deposited data

How the results depend on the processing

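No paired analysis was possible because no group holds more than 1 library. Of 92 alternative values, 55 stayed within the interval of the main value or within 1.5 times a main count and 37 moved beyond it. A change of direction was counted in 0, but this count does not settle the direction of small shifts. The main share of 55.1% is for the TBBz centre towards CK2α. When CK2α regions were chosen by distance to TBBz Pol II, the share of 51.6% (49.3 to 54.0%) is for the DMSO centre. In those shifts the TBBz centre lay farther from CK2α, so the 2 shares point in opposite directions by library. The choice by distance to TBBz was made after seeing the data. Dropping chromosome Y, or regions near region-free stretches, moved no value. Narrower windows and shorter lists hold fewer regions by construction, and the cause of other changes was not tested. The effect of depth was not tested, since the lists hold no tags to subsample.

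With the first 50% of the CK2α list there were 2749 CK2α regions at a median place of 26.4%, 6.98% had Pol II on both sides, 97.0% a TBBz centre within 1000 bp and 19.0% another CK2α region within 1000 bp; their neighbours stood at 19.8% of the DMSO list, 86.8% were found again and 143 were flanked. With the first 50% of both Pol II lists, 2.70% had Pol II on both sides, 96.3% a TBBz centre within 1000 bp, the median places were 39.0% and 23.1%, and 87.7% of neighbours were found again. With the TBBz list shortened to the length of the DMSO list, 94.4% had a TBBz centre within 1000 bp.

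With distances up to 500 bp, 6.46% had Pol II on both sides, 96.1% a TBBz centre within 1000 bp and 18.5% another CK2α region; the median place was 42.6%, 89.3% of neighbours were found again and 141 were flanked. With distances over 500 bp there were 1390 CK2α regions at a median place of 49.2%, and the values were 2.09%, 92.8% and 33.3%; neighbours stood at 29.5%, 76.6% were found again and 24 were flanked. With distances up to 2000 bp, 91.2% had a TBBz centre within 1000 bp. With regions overlapping TBBz Pol II kept in, this was 95.7% and 81.7% of neighbours were found again.

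Neighbours were found again in 81.2% of cases when at least 50% of a region had to be shared and in 93.9% with centres within 500 bp. With CK2α regions chosen by distance to TBBz Pol II, 8.47% had TBBz Pol II on both sides and 96.0% a DMSO centre within 1000 bp. Their neighbours stood at 25.0% of the TBBz list, and the DMSO centre lay towards CK2α in 51.6% of small shifts.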
